A study of Rattus norvegicus with 11 samples.

Results

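The genes described here encode the main neuropeptides of pain-sensing neurons and 2 parts of the receptor for one of them: Tac1, Calca, Calcb, Sst and Nppb, and Ramp1 and Calcrl. They were taken by gene symbol from the deposited table, which held all 7, of 16811 genes in all; all 7 reached 10 scaled counts in 3 libraries or more and so were among the 12085 genes tested. The dorsal root ganglia of Sprague-Dawley rats, where the somata of sensory neurons lie, gave RNA for 11 libraries in 3 groups. Rats of the first group had a spinal nerve ligation on the left side, which injures the nerve and is used to model neuropathic pain, and received UNC0638, an inhibitor of the histone methyltransferases G9a and GLP (SNL plus UNC0638, n = 3). Rats of the second had the left-sided ligation alone (SNL, n = 4), and those of the third were sham-operated controls whose right ganglia were taken (Sham, n = 4). Side of the body and ligation therefore cannot be told apart, and no group received UNC0638 without ligation. The sources used here do not give dose, route, time after surgery, age, or whether ganglia were pooled. Nor do they say which libraries were extracted with which of 2 reagents, so that reagent and group cannot be told apart. Nor do the labels say that the replicates were separate animals, so that p-values measure only the spread between these libraries.

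Peptidergic nociceptors make neuropeptides as longer precursors, cut them in dense-core granules and release them at both ends of the axon. Tac1 encodes substance P and neurokinin A, which transmit pain signals in the spinal cord and dilate vessels in the skin. Calca and Calcb encode the alpha and beta forms of CGRP, a strong vasodilator released in migraine; Calca also gives calcitonin by alternative splicing, and a count per gene does not separate these products. The CGRP receptor is a complex of the G protein-coupled receptor encoded by Calcrl and the single-pass partner encoded by Ramp1, which sets its preference for CGRP. Sst encodes somatostatin, an inhibitory peptide, and Nppb encodes the natriuretic peptide BNP; in mouse both mark a class of itch-sensing neurons.

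The upstream sequences of 3 peptide genes that were lower in SNL than in Sham are shown because the 3 went in the same direction there. They lie at chr4:36645333-36645612 on the plus strand (Tac1), chr1:178317500-178317779 on the minus strand (Calca) and chr11:90461296-90461575 on the plus strand (Sst). Each runs from 250 bases before the RefSeq transcript start to the first 30 bases from it, 5′ to 3′ on the strand of the gene, in build GRCr8, a later build than that of the counts. Capitals mark matches on either strand to the cyclic AMP response element TGACGTCA (CRE), to its half-site TGACG, which lies within the full element, or to the E-box CACGTG. The AP-1 motif TGANTCA was searched too and had no match in these 3 windows.
Tac1: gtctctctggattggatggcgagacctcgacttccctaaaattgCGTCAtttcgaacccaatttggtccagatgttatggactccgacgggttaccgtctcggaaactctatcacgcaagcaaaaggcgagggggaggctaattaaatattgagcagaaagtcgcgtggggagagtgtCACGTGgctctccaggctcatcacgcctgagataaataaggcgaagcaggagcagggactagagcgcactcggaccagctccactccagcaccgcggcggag
Calca: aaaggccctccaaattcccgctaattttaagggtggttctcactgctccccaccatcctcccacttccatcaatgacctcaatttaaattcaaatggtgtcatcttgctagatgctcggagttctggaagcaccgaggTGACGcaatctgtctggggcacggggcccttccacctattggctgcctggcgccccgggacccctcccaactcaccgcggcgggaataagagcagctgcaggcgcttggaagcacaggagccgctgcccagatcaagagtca
Sst: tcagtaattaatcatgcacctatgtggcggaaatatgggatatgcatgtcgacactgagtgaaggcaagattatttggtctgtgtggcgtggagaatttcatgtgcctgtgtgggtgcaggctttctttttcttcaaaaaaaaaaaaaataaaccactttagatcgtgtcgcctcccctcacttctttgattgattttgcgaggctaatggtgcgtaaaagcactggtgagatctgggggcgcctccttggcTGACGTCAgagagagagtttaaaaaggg
The full element stood in the Sst window, at bases 3 to 10 counted from the annotated start. That position depends on the RefSeq start used, and where transcription begins in these ganglia was not tested. Of 33469 rat windows of the same length, 1.78% hold the full element. Relative to the start, Tac1 had a half-site at -206 to -202 and an E-box at -72 to -67, and Calca a half-site at -112 to -108. Of all windows, 20.2% hold a half-site, 6.18% the E-box and 7% the AP-1 motif. Windows of Nppb, Ramp1 and Calcrl held none of these letters; a window for Calcb was not used here. A match is a description of letters, and binding was not measured.

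Expression is given in scaled counts, the deposited counts per gene after the authors divided each library by a factor; a library summed to 9449600 to 11347268 scaled counts, from an estimated 6127639 to 24367401 reads. Of the libraries, SNL plus UNC0638 replicate 1 stood apart: its 9 skeletal muscle genes summed to 75398 scaled counts, against 145 to 542 in the other 10. On the first principal component (53.8% of the variance) it lay at -9.04, against 41.2 and 44.1 in the other 2 SNL plus UNC0638 libraries, 23.2 to 56.7 in SNL and -71.0 to -47.8 in Sham. On the first 2 components, SNL replicate 3 and Sham replicate 3 were the nearest SNL and Sham libraries to each other. Sensory neuron markers were present in every group: the 8 of 11 that were matched (Isl1, Prph, Rbfox3, Tubb3, Uchl1, Snap25, Elavl4 and Slc17a6) summed to 74328 to 84911 in SNL plus UNC0638, 135264 to 168241 in SNL and 126808 to 154676 in Sham, and none was at 0. Their mean log2 level was 0.64 to 1.22 below the Sham mean in SNL plus UNC0638 and 0.49 to 0.98 below it in SNL. In whole ganglia, fewer cells of a type and less RNA per cell cannot be told apart.

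After ligation most peptide genes were lower and both receptor genes higher. In SNL against Sham, 4 of the 7 genes fell (Tac1, Calca, Calcb and Sst), 2 rose (Ramp1 and Calcrl) and Nppb did not pass the test (limma, Benjamini-Hochberg adjusted p under 0.05 over all tested genes). Over all 12085 genes 48.2% passed in this comparison, 23.4% lower and 24.8% higher. The libraries of the 2 groups did not overlap for the 6 genes that passed, 4 lying lower and 2 higher; of all tested genes 43.3% did not overlap, 21.2% lower and 22.1% higher. The median log2 fold change was -1.79 over the 7 genes and -0.0033 over all tested genes. With UNC0638, Sst was higher and Ramp1 lower than in SNL, and the other 5 genes did not pass the test, at a background of 27.8% of all genes passing (13.5% higher and 14.3% lower). The libraries of those 2 genes did not overlap between the groups, against 37.6% of all genes (17.7% higher and 19.9% lower). Against Sham, the SNL plus UNC0638 group was lower in Tac1, Calca, Calcb and Nppb and higher in Ramp1 and Calcrl, at a background of 51.5% passing (26.0% lower and 25.5% higher). There 5 of the 7 genes did not overlap, 3 lower and 2 higher, against 48.4% of all genes (24.9% lower and 23.4% higher). The SNL libraries serve in the first 2 of these comparisons and the Sham libraries in the first and the third, so that the comparisons are not independent of each other. The 6 calls of SNL against Sham held in each of the 11 fits with a single library left out and in the 12 other alternatives.

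**Figure D1:**
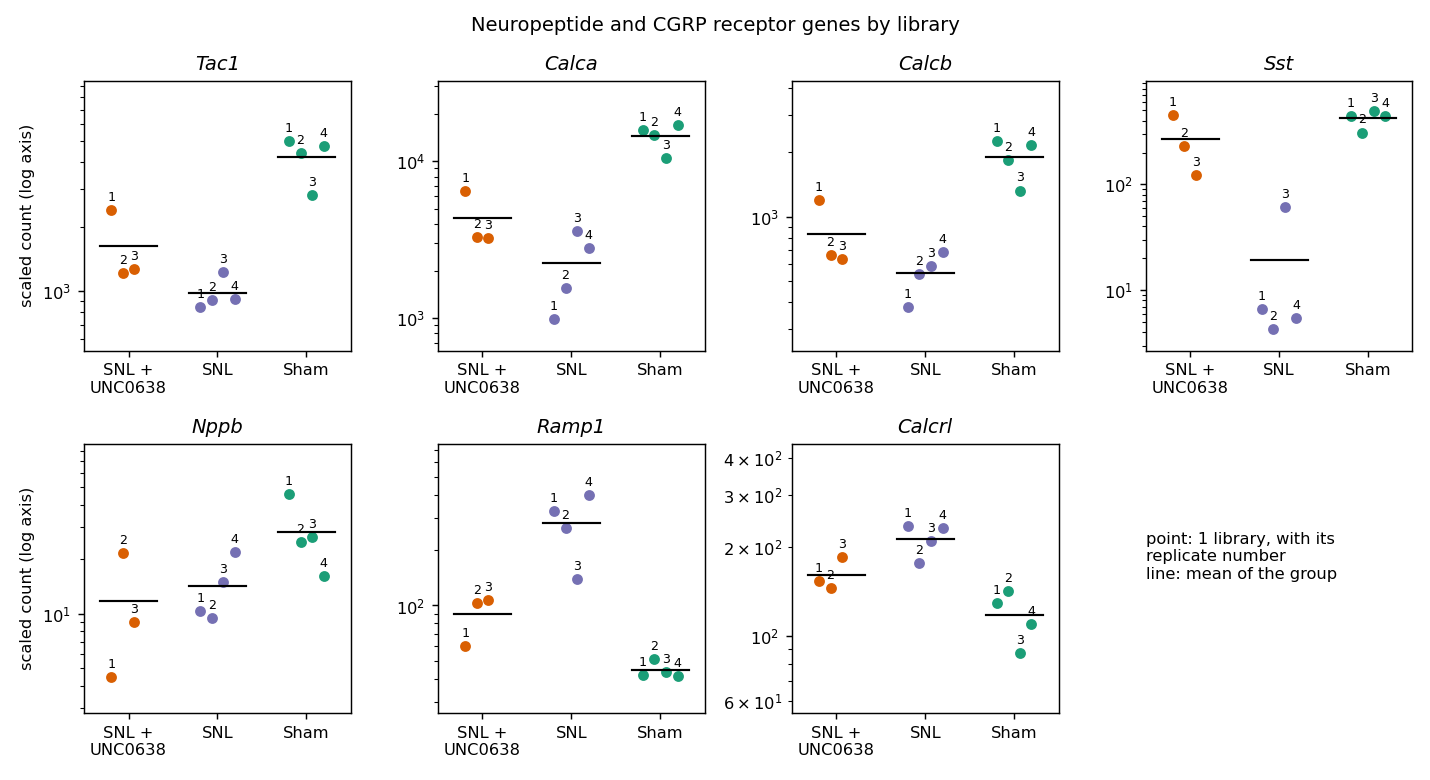
Scaled counts of the 7 genes (vertical axis, log scale) in SNL plus UNC0638, SNL and Sham libraries; each point is 1 library with its replicate number and each line a group mean. Sst was at 4.29 to 60.8 in SNL libraries, below all SNL plus UNC0638 and Sham libraries, and Ramp1 at 139.7 to 398 in SNL, above all others.

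Tac1, the substance P gene, stood at 2390.2, 1222 and 1267 scaled counts in SNL plus UNC0638, at 847, 913, 1235 and 926 in SNL and at 4999.85, 4377, 2794 and 4733 in Sham, in replicate order. All SNL and all SNL plus UNC0638 libraries lay below the lowest Sham library, and the SNL plus UNC0638 and SNL ranges overlapped. Tac1 averaged 980.3 ± 173 in SNL and 4226 ± 988 in Sham (SD, n = 4 each), 4.31-fold lower (log2 fold change -2.09, SE 0.24, limma adjusted p = 0.000119). With UNC0638 the mean was 1626 ± 662 (SD, n = 3), 1.66-fold that of SNL, a difference that missed the threshold (log2 fold change 0.67, 95% interval 0.11 to 1.24, limma adjusted p = 0.0702). That difference was 0.36 without SNL plus UNC0638 replicate 1 (limma adjusted p = 0.268), and it passed without SNL replicate 3 (0.79, limma adjusted p = 0.0410) or without Sham replicate 3 (0.67, limma adjusted p = 0.0340). Against Sham, Tac1 stayed 2.60-fold lower with UNC0638 (log2 fold change -1.41, SE 0.26, limma adjusted p = 0.00110).

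Calca, the gene of calcitonin and alpha-CGRP, was at 6440.5, 3308 and 3255 scaled counts in SNL plus UNC0638, at 993, 1567, 3603 and 2789.96 in SNL and at 15928, 14777, 10459 and 17092 in Sham. The SNL libraries spanned a 3.63-fold range, the Sham libraries a 1.63-fold range, and no ligated library reached the lowest Sham library. Calca fell 6.51-fold, with means of 2238 ± 1179 in SNL and 14564 ± 2895 in Sham (SD, n = 4 each; log2 fold change -2.85, SE 0.37, limma adjusted p = 0.000172). With UNC0638 it averaged 4334 ± 1824 (SD, n = 3), 1.94-fold the SNL mean, with overlapping libraries (log2 fold change 1.05, 95% interval 0.18 to 1.91, limma adjusted p = 0.0685). Without SNL replicate 3, the highest SNL library, this difference passed (1.33, limma adjusted p = 0.0172), and without SNL plus UNC0638 replicate 1 it was 0.72 (limma adjusted p = 0.234). Against Sham the SNL plus UNC0638 group was 3.36-fold lower (log2 fold change -1.80, SE 0.40, limma adjusted p = 0.00319).

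Calcb, the beta-CGRP gene, was at 1202, 662 and 636 scaled counts in SNL plus UNC0638, at 379.99, 542, 589 and 688 in SNL and at 2265, 1849.5, 1328 and 2168 in Sham. Its groups were arranged as for Tac1, with every ligated library below every Sham library. Calcb fell 3.46-fold in SNL against Sham (log2 fold change -1.79, SE 0.25, limma adjusted p = 0.000223). SNL plus UNC0638 against SNL missed the threshold (log2 fold change 0.57, 95% interval -0.014 to 1.15, limma adjusted p = 0.126), and gave 0.27 without SNL plus UNC0638 replicate 1 (limma adjusted p = 0.445). The SNL plus UNC0638 group was 2.28-fold lower than Sham (log2 fold change -1.22, SE 0.27, limma adjusted p = 0.00295). Calca and Calcb are similar in sequence, and the sources used here do not say how reads shared by both were counted. Within each library, Calca exceeded Calcb by 2.32 to 2.42 on the log2 scale of scaled counts, which are not per length, in SNL plus UNC0638, by 1.38 to 2.61 in SNL and by 2.81 to 3.00 in Sham. This difference was lower in every ligated library than in any Sham library: ligation went with a larger fall in Calca counts than in Calcb counts.

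Sst, the somatostatin gene, changed most among the 7 genes in SNL against Sham and in SNL plus UNC0638 against SNL. It was at 455, 231 and 124 scaled counts in SNL plus UNC0638, at 6.58, 4.29, 60.8 and 5.47 in SNL and at 442, 309, 499 and 438 in Sham. In reads, these are an estimated 507, 149 and 96 in SNL plus UNC0638, 7, 10, 81 and 6 in SNL and 318, 272, 320 and 570 in Sham. Every SNL library lay below every library of the other 2 groups, with replicate 3 about an order of magnitude above the other SNL libraries, and the SNL plus UNC0638 range overlapped that of Sham. Sst averaged 19.3 ± 27.7 in SNL and 422 ± 80.2 in Sham (SD, n = 4 each), 21.9-fold lower (log2 fold change -5.21, SE 0.67, limma adjusted p = 0.000171), and the log2 fold change was -6.03 without SNL replicate 3. With UNC0638 it averaged 269.7 ± 169 (SD, n = 3), 13.98-fold above SNL (log2 fold change 4.39, SE 0.72, limma adjusted p = 0.00204). This call held in every alternative, with a log2 fold change of 3.92 without SNL plus UNC0638 replicate 1 (limma adjusted p = 0.00944) and 5.21 without SNL replicate 3. With a model term for the 5 libraries lowest on the second principal component (all 3 of SNL plus UNC0638 and replicate 3 of SNL and of Sham, at -57.8 to 3.45, against 13.3 to 45.7 in the other 6), it was 3.03 (limma adjusted p = 0.0182). Against Sham the SNL plus UNC0638 group gave a log2 fold change of -0.82 (95% interval -2.40 to 0.76, limma adjusted p = 0.359), an interval that includes both equal levels and a several-fold fall. The difference from Sham passed with the 3 libraries that stand apart (Sham replicate 3, SNL replicate 3 and SNL plus UNC0638 replicate 1) left out together (-1.21, limma adjusted p = 0.00318) and with the model term (-2.18, limma adjusted p = 0.0237). Each of those 3 libraries held the highest Sst value of its group, and both sets of libraries were picked from these same data.

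Nppb, the BNP gene, was scarce: an estimated 5 to 14 reads in SNL plus UNC0638 libraries, 11 to 24 in SNL and 17 to 33 in Sham. Its scaled counts were 4.48, 21.7 and 9.03 in SNL plus UNC0638, 10.3, 9.43, 15.02 and 21.9 in SNL and 45.9, 25.0, 26.5 and 16.1 in Sham, and the ranges of all 3 groups overlapped. The difference between SNL and Sham missed the threshold (log2 fold change -0.93, 95% interval -1.93 to 0.07, limma adjusted p = 0.111). SNL plus UNC0638 against SNL gave -0.42 (95% interval -1.50 to 0.66, limma adjusted p = 0.534), and 0.06 without SNL plus UNC0638 replicate 1. Against Sham it gave -1.36 (limma adjusted p = 0.0378), a call that was lost in 10 of 22 alternatives, among them those without Sham replicate 1, 2 or 3 and without SNL plus UNC0638 replicate 1 or 3. A difference in Nppb was not firmly detectable in these libraries.

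Ramp1, the CGRP-specific partner of the receptor, was at 60.1, 104 and 107 scaled counts in SNL plus UNC0638, at 327, 263, 139.7 and 398 in SNL and at 41.7, 51.1, 43.6 and 41.5 in Sham. The 3 groups did not overlap, with SNL highest, SNL plus UNC0638 between and Sham lowest. Ramp1 averaged 282 ± 109.6 in SNL and 44.5 ± 4.52 in Sham (SD, n = 4 each), 6.34-fold higher (log2 fold change 2.54, SE 0.30, limma adjusted p = 0.000124). With UNC0638 it averaged 90.3 ± 26.2 (SD, n = 3), 3.12-fold below SNL (log2 fold change -1.58, SE 0.32, limma adjusted p = 0.00507). That call held without each library in turn, at -1.31 without SNL plus UNC0638 replicate 1 (limma adjusted p = 0.0214), and was lost with the model term for 5 libraries, which holds the whole SNL plus UNC0638 group (-1.11, limma adjusted p = 0.0636). Against Sham it was 2.03-fold higher (log2 fold change 0.96, SE 0.32, limma adjusted p = 0.0249). The call against Sham was lost without Sham replicate 1 or 4 and without SNL plus UNC0638 replicate 2 or 3 (log2 fold change 0.82 to 0.93, limma adjusted p 0.0536 to 0.0992), and with limma-voom on estimated reads (1.10, adjusted p = 0.0924).

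Calcrl, the receptor itself, which vessels also express, moved less. Its scaled counts were 153, 145 and 184 in SNL plus UNC0638, 235, 176, 209 and 231 in SNL and 129, 142, 87.3 and 109.9 in Sham. The libraries of either ligated group lay above all Sham libraries, and those of SNL plus UNC0638 and SNL overlapped. Calcrl averaged 213 ± 27.1 in SNL and 117 ± 23.9 in Sham (SD, n = 4 each), 1.81-fold higher (log2 fold change 0.87, SE 0.17, limma adjusted p = 0.00163). SNL plus UNC0638 against SNL gave -0.40 (95% interval -0.80 to 0.0059, limma adjusted p = 0.123). Against Sham the group gave 0.47 (limma adjusted p = 0.0491), a call that rested on the threshold and was lost in 16 of 23 alternatives, 10 of them fits without a single library. Within each library Ramp1 counts minus Calcrl counts on the log2 scale were -1.34 to -0.48 in SNL plus UNC0638, -0.58 to 0.78 in SNL and -1.61 to -0.98 in Sham, so that Ramp1 rose more than Calcrl with ligation in the counts of 4 of 4 SNL libraries.

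Markers of several other cell types rose with ligation, as the receptor genes did. In SNL plus UNC0638 against SNL, where Ramp1 was lower, the medians of their lists went both ways. They were below 0 for the fibroblast and Schwann cell lists and above 0 for the endothelial, mural, macrophage and satellite glia lists. The Schwann cell median was 0.27 in SNL against Sham and -0.25 in SNL plus UNC0638 against SNL. Mean log2 levels of 5 fibroblast genes, relative to the Sham mean, were 0.29 to 1.23 in SNL plus UNC0638, 1.18 to 2.42 in SNL and -0.10 to 0.15 in Sham, and their summed scaled counts were 25970.0 to 55676, 55709 to 112171 and 16503 to 23725 in the same groups. All 5 rose in SNL against Sham, and 3 were lower in SNL plus UNC0638 than in SNL (median log2 fold change -1.02). Endothelial genes, 11 of 12 matched with Cldn5 at 0 in every library, stood at 0.79 to 1.07 in SNL plus UNC0638, 0.48 to 0.86 in SNL and -0.16 to 0.18 in Sham, with sums of 3468 to 4680, 3116 to 3718 and 1672 to 2557. Of the 10 tested, 6 rose in SNL against Sham and none fell, and in SNL plus UNC0638 against SNL 2 were higher and 1 lower (median log2 fold change 0.31). Of 7 mural and smooth muscle genes 5 rose, of 7 macrophage genes 6, of 6 Schwann cell genes 1, and of 5 satellite glia genes 2 rose and 2 fell. Over all tested genes 24.8% rose and 23.4% fell in SNL against Sham. In SNL plus UNC0638 against SNL, 13.5% of all tested genes were higher and 14.3% lower. In SNL plus UNC0638 against SNL, 3 mural and smooth muscle genes were higher and none lower (median 0.47), and 1 macrophage gene was higher and none lower (median 0.35). Among those 3, Des was at 1443 in SNL plus UNC0638 replicate 1, the library with abundant skeletal muscle transcripts. It was at 368 and 350 in replicates 2 and 3 and at 128 to 199 in SNL. In SNL, replicate 3 was lowest in Ramp1 and in the mean log2 levels of the fibroblast, mural, endothelial and macrophage lists. The same library was highest in SNL in the Schwann cell and satellite glia levels, at 0.40 and 0.14. Replicate 4 was highest in Ramp1 and in the fibroblast and mural levels, and replicate 1 in the endothelial and macrophage levels. In Sham, Ramp1 was highest in replicate 2 and the fibroblast level in replicate 3. The part of these cells in the Ramp1 and Calcrl values was not tested.

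**Figure D2:**
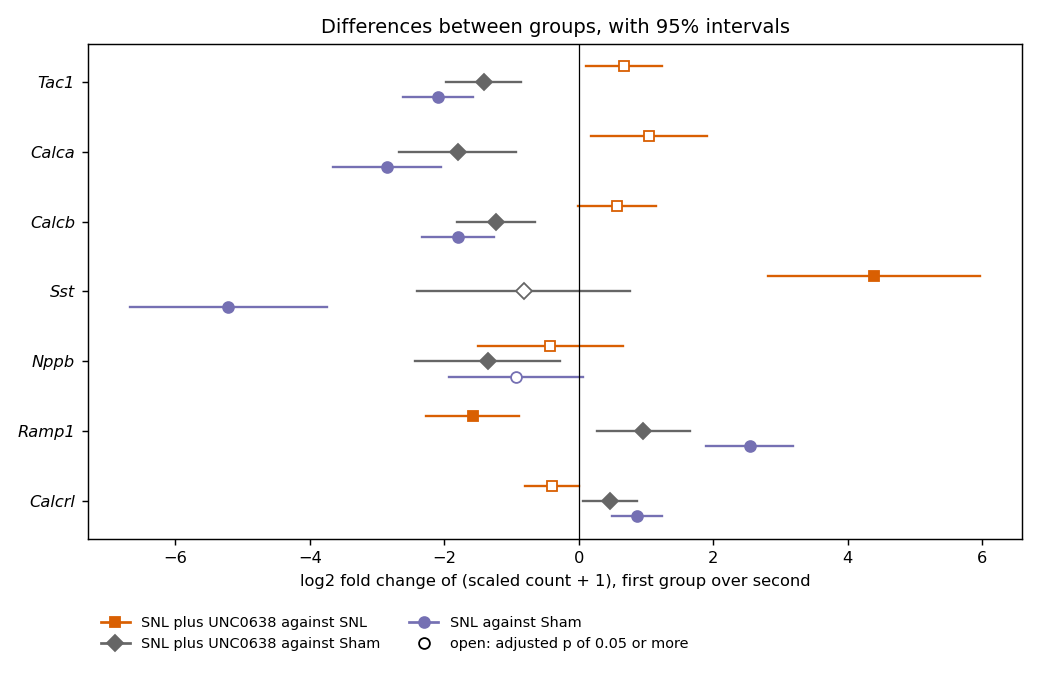
Log2 fold changes (horizontal axis) of each gene with 95% intervals for SNL plus UNC0638 against SNL (squares), SNL plus UNC0638 against Sham (diamonds) and SNL against Sham (circles); open symbols missed the threshold. For Sst the first lies at 4.39 and the last at -5.21, and for Ramp1 at -1.58 and 2.54.

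Across libraries of 1 group the peptide genes tended to share their extremes. In SNL plus UNC0638, replicate 1 held the highest value of Tac1, Calca, Calcb and Sst and the lowest of Ramp1 and Nppb. In SNL, replicate 3 held the highest value of Tac1, Calca and Sst and the lowest of Ramp1, and replicate 1 the lowest of Tac1, Calca and Calcb. In Sham, replicate 3 held the lowest value of Tac1, Calca, Calcb and Calcrl but the highest of Sst. Atf3, a gene switched on in injured sensory neurons, had 265, 1802 and 2393 scaled counts in the SNL plus UNC0638 libraries, 6912, 7460.02, 4914 and 5782 in SNL and 160.2 to 178 in Sham, lowest in the ligated groups in the same 2 libraries, replicate 1 of SNL plus UNC0638 and replicate 3 of SNL. The part of such differences between libraries in the results was not tested beyond the fits that leave them out.

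**Figure D3:**
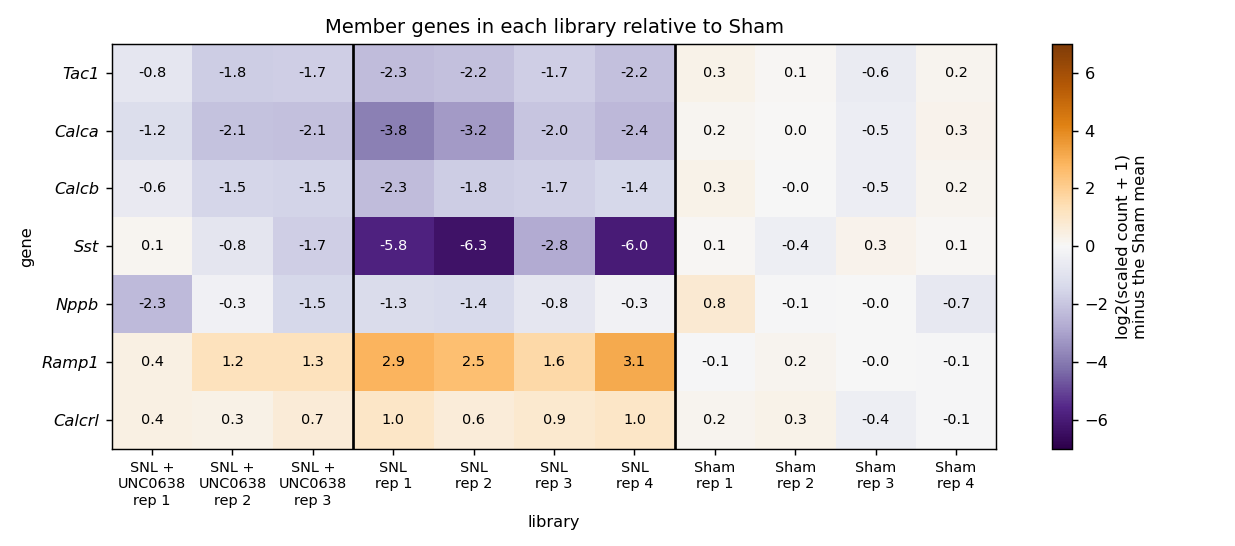
Each cell gives log2(scaled count + 1) of a gene (rows) in a library (columns) minus the Sham mean of that gene. Sst in SNL replicate 3 stands at -2.8 against -5.8 to -6.3 in the other SNL libraries, and SNL plus UNC0638 replicate 1 is nearer to 0 than replicates 2 and 3 in Tac1, Calca, Calcb and Sst.

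Genes with the profile most like each of the 7 were found by the root mean square distance between log2 profiles over the 11 libraries, each minus its own mean, among 9134 genes with a mean of at least 100 scaled counts. Nearest to Tac1 were Rit2, a small neuronal GTPase (distance 0.12 on the log2 scale), RGD1310110 (0.13) and Fgf12, an intracellular partner of sodium channels (0.14). Calcb, at a distance of 0.22, would rank ninth for Tac1. Nearest to Calca were Scg2 (0.32), whose product is stored in the dense-core granules themselves, and the potassium channel subunit gene Kcnab1 (0.33). Nearest to Calcb were Tspan8 (0.12), Ldb2 (0.18) and the annexin gene Anxa5 (0.21). Those nearest to Ramp1 were the extracellular matrix gene Tgfbi (0.28), Pcolce, which aids collagen processing (0.29), and the retinoic acid binding gene Crabp2 (0.30). Tgfbi averaged 3332 ± 1717 in SNL plus UNC0638 (SD, n = 3), 9297 ± 4519.85 in SNL and 1263 ± 73.5 in Sham (SD, n = 4 each). Calcrl had Ccdc50, Smek2 and the phospholipase gene Pld1 (each 0.15) and Nppb had none within 0.58. All genes are measured in the same 11 libraries, which differ in depth and group, and the distance has no test.

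Nearest to Sst were genes of other receptors and an adhesion molecule: the nicotinic receptor subunit Chrna3 (0.29), the serotonin-gated channel subunit Htr3b (0.40) and the cadherin Cdh3 (0.46). Chrna3 was at 583, 302 and 208 scaled counts in SNL plus UNC0638, at 8.47, 9.86, 90.9 and 5.47 in SNL and at 812, 428, 612 and 763 in Sham. As in Sst, the SNL libraries lay below all others and replicate 3 above the other SNL libraries. Of 6 genes that mark the somatostatin and itch class in mouse, 2 fell in SNL against Sham (Il31ra and Cysltr2), 2 rose (Osmr and Htr1f), and Nts and Jak1 did not pass. In SNL plus UNC0638 against SNL, Il31ra, Cysltr2 and Osmr were higher. Over all tested genes 48.2% passed in the first of these comparisons and 27.8% in the second. Il31ra, the interleukin-31 receptor gene, averaged 735 ± 312 in SNL plus UNC0638 (SD, n = 3), 202 ± 130.01 in SNL and 1001 ± 202 in Sham (SD, n = 4 each). Cysltr2, a leukotriene receptor gene, averaged 94.2 ± 38.8, 11.4 ± 9.03 and 229.7 ± 96.2 in the same groups, with log2 fold changes of -4.41 for SNL against Sham (limma adjusted p = 0.000134) and 3.18 for SNL plus UNC0638 against SNL (limma adjusted p = 0.00274). The median log2 fold change of the 6 was 0.29 in SNL against Sham, where the 2 genes just named lay far below it.

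**Figure D4:**
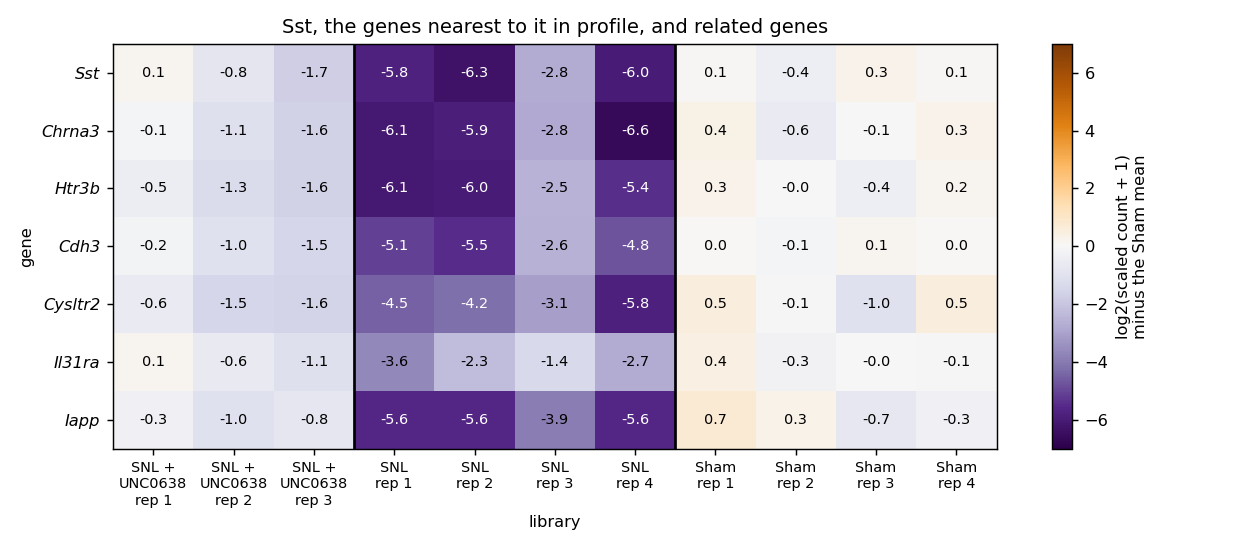
Log2(scaled count + 1) minus the Sham mean (cells) of Sst, of the 3 genes nearest to it and of Cysltr2, Il31ra and Iapp (rows; these last 3 were chosen after their values were seen) in each library (columns). In SNL replicate 3 each of the 7 genes is less far below Sham than in the other SNL libraries. The rows were chosen by likeness to Sst or with values known, so this shared pattern is no independent support. Not shown from the mouse list of Cysltr2 and Il31ra are Osmr and Htr1f, which rose in SNL against Sham, and Nts and Jak1, which did not pass.

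Other peptide ligands of the same families gave 3 tested genes of 8, with Tac3 not matched to the table. Iapp, the amylin gene of the calcitonin family, fell with ligation: it was at 37.7, 23.2 and 27.1 scaled counts in SNL plus UNC0638, at 0 in 3 SNL libraries and 2.25 in SNL replicate 3, and at 79.3, 59.1, 28.0 and 37.7 in Sham. Its log2 fold changes were 4.47 for SNL plus UNC0638 against SNL (SE 0.49, limma adjusted p = 0.000321) and -5.17 for SNL against Sham (SE 0.46, limma adjusted p = 0.000101), and both depend on the added 1 because of the zeros. Nppa, the atrial natriuretic peptide gene, fell to 25.9 ± 6.84 in SNL, against 94.9 ± 16.8 in Sham (SD, n = 4 each; log2 fold change -1.86, limma adjusted p = 0.00137), and stood at 26.3 ± 16.4 with UNC0638 (SD, n = 3). Adm, the adrenomedullin gene, whose product also signals through Calcrl, rose to 88.5 ± 36.2 in SNL, against 36.1 ± 6.14 in Sham (SD, n = 4 each; log2 fold change 1.17, limma adjusted p = 0.0142).

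Receptors of these peptides were 11 tested genes of 15. In SNL against Sham 4 rose and 1 fell, in SNL plus UNC0638 against SNL 2 were higher and 3 lower, and against Sham 3 were higher and 2 lower. The medians were 0.06, -0.45 and 0.25. Over all tested genes 48.2%, 27.8% and 51.5% passed in the same comparisons. The somatostatin receptor genes with the smallest p went both ways. Sstr4 averaged 8.59 ± 4.69 in SNL plus UNC0638 (SD, n = 3), 42.7 ± 9.33 in SNL and 6.29 ± 4.26 in Sham (SD, n = 4 each), with log2 fold changes of -2.31 for SNL plus UNC0638 against SNL (limma adjusted p = 0.00535) and 2.72 for SNL against Sham (limma adjusted p = 0.000500). Sstr1 averaged 12.1 ± 6.94, 2.43 ± 1.17 and 16.1 ± 5.96 in the same groups, falling with ligation (log2 fold change -2.32, limma adjusted p = 0.00126) and higher with UNC0638 than in SNL (1.87, limma adjusted p = 0.0140). Sstr3 rose to 33.0 ± 18.7 in SNL, against 1.67 ± 1.52 in Sham (SD, n = 4 each; log2 fold change 3.70, limma adjusted p = 0.00132). Sstr5 was at 0 in every library, and all 3 of the named receptor genes were low in counts.

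Genes of prohormone cutting and of the dense-core granule gave 18 tested of 20. In SNL against Sham 9 fell and 4 rose (median -0.65), in SNL plus UNC0638 against SNL 4 were higher and 3 lower (median 0.06), and against Sham 1 was higher and 7 lower (median -0.22). The shares of all tested genes that passed were 48.2%, 27.8% and 51.5% in the same order. Scg2, which encodes secretogranin II, fell to 826 ± 399.8 in SNL, against 7195 ± 1572 in Sham (SD, n = 4 each; log2 fold change -3.20, SE 0.32, limma adjusted p = 0.000101). With UNC0638 it was at 3609, 2069.99 and 1637, each above the highest SNL library (1405; log2 fold change 1.59, limma adjusted p = 0.00748). Chga, the chromogranin A gene, fell (log2 fold change -2.08, limma adjusted p = 0.000101), as did Scg5, whose product 7B2 assists the convertase PC2 (-1.25, limma adjusted p = 0.000172); with UNC0638 neither passed against SNL (0.63, limma adjusted p = 0.0556, and 0.10, limma adjusted p = 0.699).

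Of 7 peptidase genes, 4 rose and 1 fell in SNL against Sham (median 0.82), where 24.8% of all tested genes rose and 23.4% fell. In SNL plus UNC0638 against SNL, 0 were higher and 1 lower (median -0.27), at 13.5% higher and 14.3% lower over all genes. Against Sham, 2 were higher and 1 lower with UNC0638 (median 0.43), at 25.5% higher and 26.0% lower over all genes. Nln, the neurolysin gene, rose to 787 ± 83.4 in SNL, against 412 ± 48.8 in Sham (SD, n = 4 each; log2 fold change 0.93, limma adjusted p = 0.000523), and Dpp4, which trims peptides outside cells, to 423 ± 292 in SNL, against 62.2 ± 19.4 in Sham (log2 fold change 2.51, limma adjusted p = 0.00266). Thop1, the thimet oligopeptidase gene, fell (-0.45, limma adjusted p = 0.00367).

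Of genes for signals and transcription factors of sensory neurons, 11 of 17 were tested; 5 fell and none rose in SNL against Sham (median -0.48), 2 were higher and none lower in SNL plus UNC0638 against SNL (median 0.40), and 2 were higher and 4 lower against Sham (median -0.10). The medians over all tested genes were 0.0066 for SNL plus UNC0638 against SNL and -0.011 against Sham. Shares passing over all tested genes were 48.2% in SNL against Sham, 27.8% in SNL plus UNC0638 against SNL and 51.5% in that group against Sham. Prrxl1, a homeobox gene of nociceptors, averaged 849 ± 287 in SNL plus UNC0638 (SD, n = 3), 346 ± 105.9 in SNL and 1296 ± 93.96 in Sham (SD, n = 4 each), lower in SNL than in Sham (log2 fold change -1.95, limma adjusted p = 0.000134) and higher with UNC0638 than in SNL (1.29, limma adjusted p = 0.00412). Isl1, a homeobox gene of sensory neurons, fell in SNL against Sham (-1.20, limma adjusted p = 0.000172) and missed the threshold in SNL plus UNC0638 against SNL (0.40, limma adjusted p = 0.0952). Of 6 tested markers of peptidergic nociceptors other than the 7 genes, 4 fell and 1 rose in SNL against Sham (median -1.96), and 3 were higher and 1 lower in SNL plus UNC0638 against SNL (median 1.15). Their mean log2 level relative to Sham was -0.70 to -0.17 in SNL plus UNC0638, -2.01 to -0.89 in SNL and -0.14 to 0.08 in Sham. The group means of Tac1, Calca, Calcb and Sst stood in the same order, though of these genes only Sst passed in SNL plus UNC0638 against SNL.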

How the data were processed

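Per the labels' protocols, Trizol or RNeasy served to extract RNA, with no record of which sample received which, and stranded libraries followed ribosomal RNA removal. Per the series' design text, single-end reads of 50 bases were aligned to rat build rn4 with TopHat; the submitters' processing notes name TopHat2 2.0.9 and Cuffdiff 2.1.1. The sources used here do not give the annotation or the use of strand.

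The deposited values are treated as signal, since the authors had divided the gene counts by 1 factor per library. Low values were whole multiples of 1 step per library, within 0.05 steps, for 98.9% to 99.6% of them; dividing by the step gave the estimated reads. For pairs of same-group libraries, chi-square per degree of freedom over genes was 5.88 to 78.6, where counting noise alone gives about 1. This compares variances, and genes with many reads weigh most in it. Sdc2 and Pcdhgc5 were not used, a choice made with their values known (each at 0 throughout 1 group). Genes reaching 10 in 3 libraries or more entered limma 3.58.1 (R 4.3.3) as log2(value + 1), with 1 mean for each group, all 11 libraries in the fit, and eBayes with trend and robust estimates (statmod 1.5.0); two-sided p-values were adjusted by Benjamini-Hochberg over 12085 genes. Fold changes on the log2(value + 1) scale understate the change of low genes, while stated n-fold values are ratios of group means of scaled counts. A count model had been named for the case of raw counts. The script was tested on simulated data. The genes and lists were chosen with earlier results of these data known. From each pathway list, the 3 called genes with the smallest p in SNL against Sham are named; markers named beyond these were chosen after their values were seen. Of the genes these rules pick, 2 are not reported here. Promoters matched 6 of the 7 genes by symbol (RefSeq, GRCr8). Same-numbered libraries did not deviate together throughout, so numbers were not taken as pairs.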

Additional observations from a re-analysis of the deposited data

Results flagged for a closer look

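Of 14 groups of 4 libraries (7 genes in SNL and in Sham), 1 had a library far from the rest: Sst in SNL, where replicate 3 stood at 60.8 scaled counts and the other 3 at 4.29 to 6.58. Chance sets apart about 1 in 20 such groups.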

How the results depend on the processing

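The 7 genes were refitted under 23 alternatives. In SNL against Sham the members called stayed at 6 throughout. In SNL plus UNC0638 against SNL they were 2, then 4 (Tac1 and Calca added) with limma-voom on estimated reads, an alternative chosen after seeing the data, 1 with the model term (Ramp1 lost), 4 with the 3 libraries that stand apart left out, and 2 to 4 with a single library left out. The log2 fold change of Nppb there reversed to 0.11 with those 3 left out, and ran over -0.96 to 0.063 with a single library left out, reversed without SNL plus UNC0638 replicate 1. Against Sham they were 6, then 4 with limma-voom (Nppb and Ramp1 lost), and 3 to 5 with a single library left out. Genes called over the whole table in SNL plus UNC0638 against SNL were 3356, then 1286 with the model term, 5220.0 with the 3 libraries left out, and 2032 to 4468 with a single library left out. With limma-voom the split there was 2448 higher and 1129 lower (1630 and 1726 without it), and against Sham 3770 and 1852 (3083 and 3137), with medians of all genes of 0.10 and 0.18. The replicate block, tried although same-numbered libraries gave deviations correlated over genes at -0.45 to 0.43, gave 2126 genes and 2 members called in SNL plus UNC0638 against SNL, 5437 and 4 in that group against Sham (Nppb and Calcrl lost), and 5342 and 6 in the ligation comparison. The limma-voom fit scaled the estimated reads by library totals over the tested genes, not by the authors' factors, so that it differs in scaling as well as in model. The 3 libraries left out together and those of the model term were picked from these same data. The cause of the changes under these alternatives was not tested. Nppb could not be fitted with a minimum of 30. The count tests planned for whole reads, edgeR and DESeq2, were not run. Few reads and the spread between libraries limit what is shown of Nppb and, in SNL, of Sst.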

Other observations

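Gfra3, the receptor gene for artemin on peptidergic nociceptors, went against the other markers of that class: it averaged 593 ± 158 scaled counts in SNL plus UNC0638 (SD, n = 3), 1382 ± 78.1 in SNL and 594 ± 45.4 in Sham (SD, n = 4 each), with log2 fold changes of 1.22 for SNL against Sham (limma adjusted p = 0.000121) and -1.25 for SNL plus UNC0638 against SNL (limma adjusted p = 0.000496). Osmr, which pairs with Il31ra in the interleukin-31 receptor, averaged 766 ± 238, 384 ± 60.8 and 219 ± 33.7 in the same groups, and was higher in SNL plus UNC0638 than in SNL (log2 fold change 0.96, limma adjusted p = 0.00738). Prph, the peripherin gene of small sensory neurons, averaged 22740.2 ± 969.5 in SNL plus UNC0638, 38553 ± 3238 in SNL and 37120.0 ± 2868 in Sham, lower with UNC0638 than in SNL (log2 fold change -0.76, limma adjusted p = 0.00143). These 3 genes were chosen after their values were seen.

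UNC0638 inhibits the enzymes encoded by Ehmt2 and Ehmt1, whose RNA gave differences between SNL plus UNC0638 and SNL that missed the threshold: Ehmt2 averaged 1237 ± 277 in SNL plus UNC0638 (SD, n = 3) against 1134 ± 85.4 in SNL (SD, n = 4), and Ehmt1 averaged 638 ± 51.3 against 678 ± 33.3 in the same groups (limma adjusted p = 0.662 and 0.549).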
